A study of Rattus norvegicus with 12 samples.

Results

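The oligodendrocyte lineage transcription factors described here are 9 genes taken by name from the 30562 genes of a rat bulk RNA-seq table: the basic helix-loop-helix factors Olig1 and Olig2, the homeodomain factors Nkx2-2 and Nkx6-2, the SRY-box factors Sox10, Sox8 and Sox6, the myelin regulatory factor Myrf, and the zinc-finger factor St18. They were listed for their known place in the lineage, by a rule that uses no measured value, although earlier results of these data were known when the list was made. Each symbol matched 1 row of the table.

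The libraries came from primary oligodendrocyte precursor cells (OPCs) of wild-type Sprague-Dawley rats, prepared from the cerebral cortex at postnatal day 1 or 2. Per the methods, mixed glia were grown in flasks, microglia were shaken off first, and the OPCs detached by a later shake were kept in a medium with FGF-2 and PDGF-AA. The 6 libraries of mild-hypo-OPCs came from cells kept at a fraction of inspiratory oxygen (FiO2) of 5%, and the 6 libraries of standard OPCs from cells cultured without hypoxic preconditioning. The labels give 6 hours at 5% FiO2 whereas the methods give 6 days, and the study's figure legend gives n = 3 per group, so the p-values below measure the spread between 6 deposited libraries per group that may not all be separate cultures.

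These factors act in sequence as a neural progenitor becomes a myelinating cell. OLIG2 and OLIG1 set up the lineage, SOX10 is switched on downstream of OLIG2 and keeps the cells committed, and SOX8 shares much of the work of SOX10. SOX6 holds OPCs in the precursor state, NKX2-2 accompanies the turn to differentiation, and MYRF, induced by SOX10, is cut from a membrane-bound precursor and switches on the myelin genes together with it. In other settings, low oxygen acting through hypoxia-inducible factors holds OPCs immature, and the comparison here asks how an FiO2 of 5% bears on the factors themselves.

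Of the 9 factors, Myrf and Nkx2-2 rose in mild-hypo-OPCs and none fell, while Olig1, Olig2, Sox8, Sox6 and Nkx6-2 did not pass the test. Both calls sat near the threshold: that of Myrf was lost in 7 and that of Nkx2-2 in 8 of 12 fits that left out 1 library. Sox10 lay 0.23 higher on the log2 scale without passing. St18 was below the filter on low counts. The 2 factors called higher among the 8 tested stand beside a background of 7.00% of all 8938 genes tested called higher and 17.0% called lower (edgeR quasi-likelihood test, Benjamini-Hochberg adjusted p under 0.05). In none of the 9 did the 2 groups of libraries separate completely. Over all genes tested, the lowest mild-hypo-OPC library exceeded the highest standard one for 2.94%, and the reverse held for 5.40%. The median log2 fold change of the 8 factors was 0.09, with 7 positive and 1 negative, against a median of -0.003 over all genes tested (quartiles -0.25 and 0.16).

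Depth differed between the groups without overlap and bears on each of these values. Mild-hypo-OPC libraries totalled 4111669 to 9022324 counts each. Standard libraries totalled 2240615 to 2797513 counts in replicates 1 to 3 and 1356079 to 1664627 in replicates 4 to 6. The trimmed-mean (TMM) scaling factors also fell apart, from 1.076 to 1.233 against 0.8088 to 0.9451, so condition, depth and RNA composition cannot be told apart in full. The label OPC was checked against 11 markers, of which 10 had a row and were tested, and none was called lower. Lhfpl3 had no row. Pdgfra, the PDGF receptor of OPCs, stood at 236 ± 26.8 and 229 ± 33.8 CPM (the counts-per-million value on TMM-scaled library totals; SD, n = 6 per group). Gpr17, Cacng4, Bcan and Neu4 rose, 4 of 10 where 7.00% of all genes rose and 17.0% fell, and the summed level of the 10 was 3609 to 4431 CPM against 2976 to 4066. Astrocyte markers summed to 870.2 to 1014 against 829 to 921 CPM (2 of 8 tested rose, 1 fell), neuronal markers to 495 to 556 against 436 to 528 CPM (2 of 9 rose, 1 fell) and microglial markers to 77.0 to 106 against 49.7 to 79.2 CPM (3 of 7 rose, 1 fell). Mesenchymal and endothelial markers stayed at or below 3.73 CPM in sum, none was tested, and Lum, Cdh5 and Rgs5 had no count in any library. The same background shares apply to each of these lists. The part of other cells in the results was not tested, and in bulk RNA fewer cells of a type and less RNA per cell cannot be told apart.

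Upstream sequence was read for the members that a RefSeq promoter table of the GRCr8 assembly lists, 4 of 9, as the 250 bases before the annotated start. The counts were made on the earlier assembly mRatBN7.2. Because the treatment was low oxygen, the windows were searched on both strands for the hypoxia-response core bound by hypoxia-inducible factors (ACGTG or GCGTG), which 36.7% of 33469 windows of the same length held. Olig2 (chr11:43961335-43961584, plus strand) and Sox6 (chr1:179665372-179665621, minus strand) are shown as lineage factors with a match, in capitals, and Nkx2-2 (chr3:155075623-155075872, minus strand) as the factor with a window that rose and held none.
Olig2: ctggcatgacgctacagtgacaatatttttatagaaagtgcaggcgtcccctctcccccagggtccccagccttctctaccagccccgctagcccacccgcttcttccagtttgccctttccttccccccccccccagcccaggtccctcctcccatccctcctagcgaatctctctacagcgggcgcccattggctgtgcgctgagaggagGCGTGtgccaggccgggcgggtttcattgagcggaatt
Sox6: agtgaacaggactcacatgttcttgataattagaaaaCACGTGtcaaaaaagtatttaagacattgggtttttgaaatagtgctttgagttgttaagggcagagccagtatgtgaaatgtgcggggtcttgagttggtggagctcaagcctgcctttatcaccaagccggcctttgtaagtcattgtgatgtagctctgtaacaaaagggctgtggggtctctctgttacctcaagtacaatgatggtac
Nkx2-2: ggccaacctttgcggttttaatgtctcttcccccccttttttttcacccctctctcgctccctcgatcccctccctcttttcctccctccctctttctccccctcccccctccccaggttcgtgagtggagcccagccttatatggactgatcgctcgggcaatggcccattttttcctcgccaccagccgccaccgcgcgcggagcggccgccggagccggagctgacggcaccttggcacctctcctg

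The match in Olig2 was 1 core at 38 to 34 bases before the start. In Sox6 the cores on both strands overlapped, at 213 to 208 bases before the start. The Sox6 window also held 3 SOX cores (ACAAAG or ACAATG, either strand), and 25.3% of all windows held at least 1. Nkx6-2, not printed, had 1 hypoxia-response core at 80 to 76 bases before its start and no SOX core (chr1:203813123-203813372, minus strand). The listed Nkx2-2 start lies inside the span of the gene, and its window held neither motif. Olig1, Sox10, Sox8, Myrf and St18 had no window in the table. A match is a run of letters and not a binding site, and 3 of 4 windows held the hypoxia-response core.

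Olig1 and Olig2, neighbours in the genome, mark the lineage from its start. Olig2 (ENSRNOG00000028658), which specifies the lineage and remains on throughout it, measured at least 296.5, in the median 305 and at most 320.2 CPM in mild-hypo-OPCs, against 266, 285 and 318 CPM in standard OPCs. Each mild-hypo-OPC value exceeded the standard median, but only 1 exceeded the highest standard value. The log2 fold change was 0.08 (SE 0.07, 95% interval -0.06 to 0.23, adjusted p = 0.403, edgeR). Olig1 (ENSRNOG00000028648), the paralog needed for maturation and repair, had 569.8, 669 and 706 CPM against 589.6, 644 and 700.3 CPM as the lowest, median and highest libraries. Both groups covered the same range, and the log2 fold change of 0.02 (SE 0.08, interval -0.14 to 0.18) had an adjusted p of 0.863 in edgeR. Changes of Olig1 larger than 0.18 on the log2 scale in either direction thus lay outside its interval in this fit under TMM scaling. With log2 total count, which did not overlap between the groups, as a covariate, its value moved to 0.37 (SE 0.14, edgeR adjusted p = 0.442).

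Of the homeodomain factors 1 of 2 passed the test. Nkx2-2 (ENSRNOG00000012728), a repressor first known from ventral patterning and later raised as OPCs differentiate, measured 169, 171, 165, 158, 176 and 183 CPM in mild-hypo-OPC replicates 1 to 6 and 165, 147, 148, 139.9, 151 and 135 CPM in standard replicates 1 to 6. In 5 of 6 mild-hypo-OPC libraries the level exceeded the highest standard one, which was replicate 1. The means were 170.3 ± 8.86 and 148 ± 10.2 CPM (SD, n = 6 each), a log2 fold change of 0.20 (SE 0.07, interval 0.05 to 0.35, edgeR adjusted p = 0.0486). The call sat at the threshold: it was lost in 8 of 12 fits that left out 1 library, without mild-hypo-OPC replicates 2, 5 or 6 or standard replicates 2 to 6, with log2 fold changes of 0.18 to 0.23 and adjusted p of 0.0526 to 0.101. Nkx6-2 (ENSRNOG00000017748), a homeodomain factor of oligodendrocytes that takes part in axon-glia contact, was counted 113 to 204 times per mild-hypo-OPC library and 12 to 69 times per standard library. Its levels of 18.9, 21.8 and 28.6 CPM (lowest, median, highest) and of 11.04, 20.2 and 26.4 CPM overlapped, and its interval of -0.24 to 0.40 around 0.08 was the widest of the 8 (edgeR adjusted p = 0.732).

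None of the 3 SRY-box factors passed the test. Sox10 (ENSRNOG00000011305), the group E factor that directs myelin genes and Myrf itself, measured 609, 561, 497, 514, 584 and 559.7 CPM in mild-hypo-OPC replicates 1 to 6 and 568, 539, 442, 424, 373 and 485.5 CPM in the standard replicates. All mild-hypo-OPC libraries exceeded the standard median, and 2 of them exceeded the highest standard library. Means of 554 ± 42.0 and 472 ± 73.1 CPM gave a log2 fold change of 0.23 (SE 0.10, interval 0.03 to 0.43), which had an unadjusted p of 0.0278 and an adjusted p of 0.0910 in edgeR. Without standard replicate 1, which held the highest standard level, the adjusted p was 0.0229 at 0.29, and in replicates 4 to 6 alone it was 0.0185 at 0.38. In replicates 1 to 3 alone the log2 fold change of Sox10 was 0.12 (edgeR adjusted p = 0.626), and without standard replicate 5, the lowest, it was 0.17 (0.198). Sox8 (ENSRNOG00000018841), its close relative, spanned 255 to 277 CPM (median 271) against 226 to 266 CPM (median 261). Although 5 of 6 mild-hypo-OPC libraries exceeded the highest standard one, that gap was narrow, and the log2 fold change was 0.09 (SE 0.07, interval -0.06 to 0.23, edgeR adjusted p = 0.386). Sox6 (ENSRNOG00000020514), the group D factor that opposes precocious differentiation, was the factor with a negative value. It spanned 76.7 to 97.3 CPM (median 92.0) against 75.6 to 110.4 CPM (median 102), and each mild-hypo-OPC value was under the standard median. The ranges were nested all the same, and the log2 fold change of -0.11 (SE 0.10, interval -0.32 to 0.09) did not pass (edgeR adjusted p = 0.425).

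Myrf (ENSRNOG00000028274), the membrane-tethered activator of the myelin programme, had the largest change of the 8 tested under TMM scaling. Mild-hypo-OPC replicates 1 to 6 held 525, 469.6, 418, 379, 469.9 and 396 CPM, from 1852 to 5031 counts, and standard replicates 1 to 6 held 442, 420.4, 349, 261, 228 and 329.8 CPM, from 284 to 1157 counts. All mild-hypo-OPC libraries exceeded the standard median, 3 exceeded the highest standard library, and 4 standard libraries lay below the lowest mild-hypo-OPC one. The means of 443 ± 54.8 and 338 ± 84.7 CPM gave a log2 fold change of 0.38 (SE 0.13, interval 0.10 to 0.66, edgeR adjusted p = 0.0442). Levels ran lower in replicates 4 to 6 of both groups, at 379 to 469.9 against 418 to 525 CPM in mild-hypo-OPCs and at 228 to 329.8 against 349 to 442 CPM in standard OPCs. Between the groups, replicates 4 to 6 alone differed by 0.61 (edgeR adjusted p = 0.000878) and replicates 1 to 3 alone by 0.24 (0.298). The call of Myrf was lost without mild-hypo-OPC replicates 1, 2 or 5 or standard replicates 3, 4, 5 or 6, at adjusted p of 0.0643 to 0.103. Once the depth of the library (log2 total count) was a covariate, its sign turned to -0.41 (SE 0.21, edgeR adjusted p = 0.663). Depth did not overlap between the groups, so this fit cannot separate depth from condition.

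St18 (ENSRNOG00000006200), a zinc-finger factor of the MYT family, was barely detected. Its counts were 11 to 50 (median 20) in mild-hypo-OPC libraries and 1 to 6 (median 5) in standard ones, or 2.03 to 5.22 and 0.763 to 3.999 CPM. A filter that admitted it gave a log2 fold change of 0.49 with an interval of -0.18 to 1.16 (edgeR adjusted p = 0.313). No difference was thus detected, on counts this low.

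**Figure D1:**
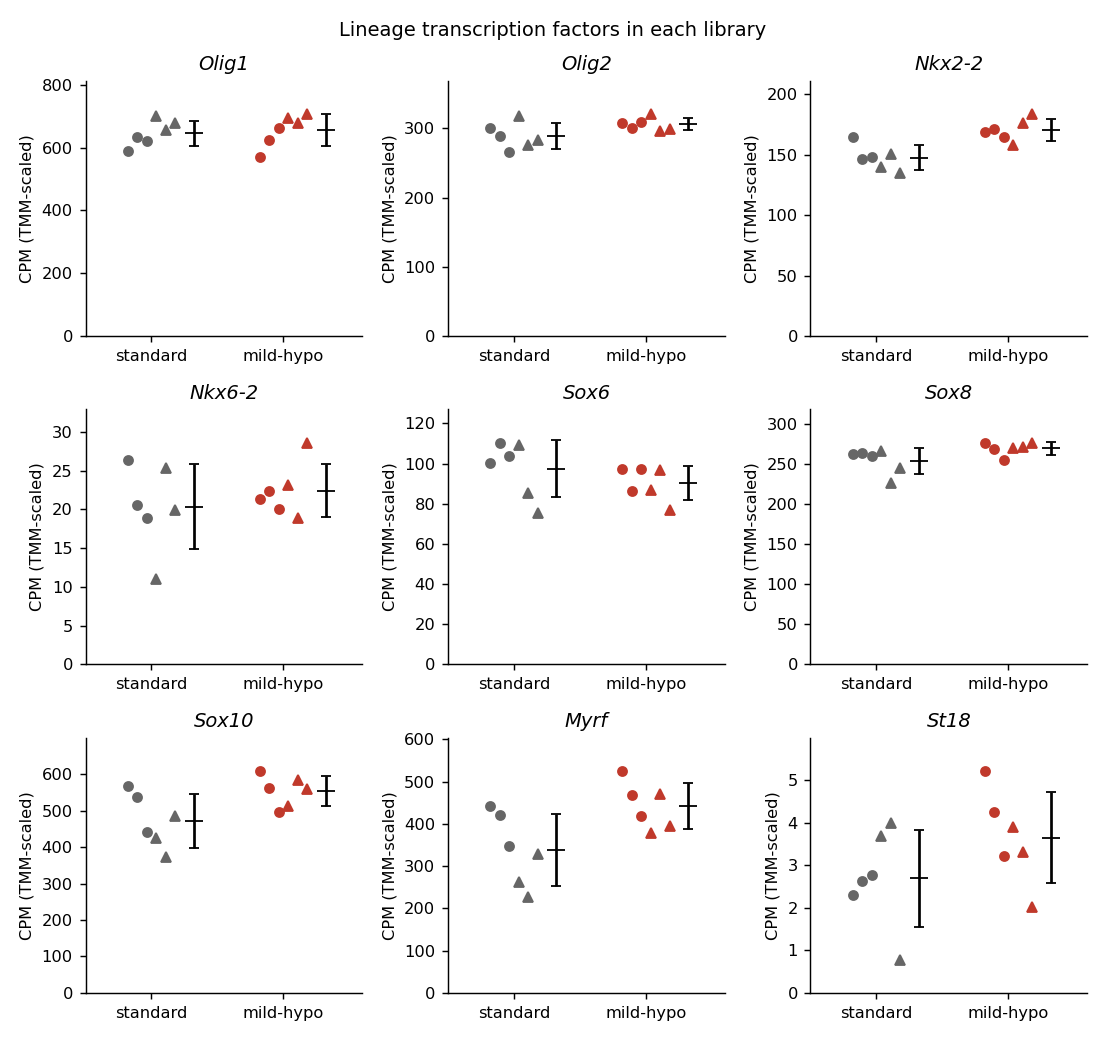
Level of each of the 9 factors in every library as TMM-scaled CPM (y axis from 0, its own scale in each panel) for standard OPCs in grey and mild-hypo-OPCs in red. Circles are replicates 1 to 3, triangles replicates 4 to 6, in replicate order, and the bar beside them is the mean ± SD of 6 libraries. Nkx2-2 and Myrf sit higher in mild-hypo-OPCs (170.3 against 148 and 443 against 338 CPM on average), and the groups overlap in each panel.

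The directions above are those of the fit to all 12 libraries under TMM scaling, and within that scaling Olig1 and Nkx6-2 turned to values just below 0 when standard replicate 1 or 4, respectively, was left out. With library size alone as the scaling, all 8 tested factors were called higher, from 0.33 for Sox6, whose sign turned, to 0.82 for Myrf, while the median of all genes moved from -0.003 to 0.43. Set against that median, Sox6 lay below it and all other tested factors above it, from 0.47 for Olig1 to 0.82 for Myrf. Upper-quartile scaling shifted the median of all genes by less, to 0.06, and brought Sox10 past the threshold at 0.30 (edgeR adjusted p = 0.0325). When log2 total count entered the fit as a covariate, none of the factors was called and Sox10 and Myrf turned negative (SE 0.18 and 0.21). Depth did not overlap between the groups, so the fit with this covariate cannot separate depth from condition. In that fit Olig1 moved to 0.37 and Sox6 to -0.38 (edgeR adjusted p = 0.442 and 0.666).

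**Figure D2:**
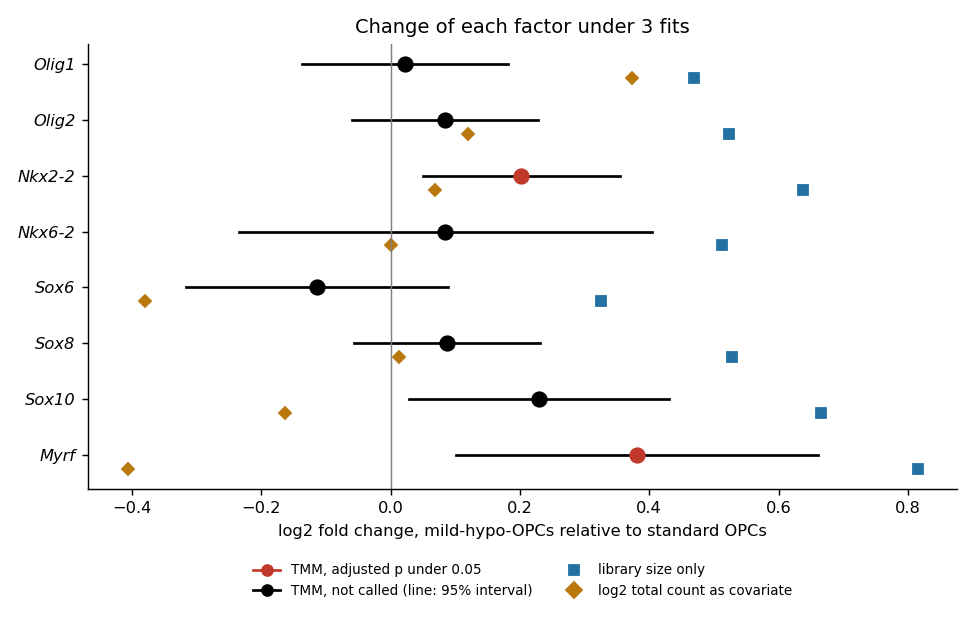
Log2 fold change of each tested factor in mild-hypo-OPCs relative to standard OPCs. Circles with lines are the TMM fit and its 95% interval (red where the adjusted p is under 0.05), squares the fit scaled by library size only, diamonds the fit with depth (log2 total count) among its terms. Each square lies to the right of the circle of its own factor, and the squares run from 0.33 to 0.82. The diamonds of Myrf, Sox6 and Sox10 lie left of 0 at -0.41, -0.38 and -0.16, and that of Olig1 lies at 0.37.

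A ratio of 2 genes counted in the same library needs no scaling factor. Counts of Myrf per count of Olig2, as log2 with 1 added to each count, spanned 0.24 to 0.77 in mild-hypo-OPCs (mean 0.53 ± 0.20, SD, n = 6) and -0.28 to 0.56 in standard OPCs (0.19 ± 0.38). Every mild-hypo-OPC ratio exceeded the standard mean, and 3 exceeded the highest standard ratio. The difference of 0.33 had p = 0.0996 by a two-sided exact permutation test, 0.199 after adjustment over the 2 ratios tested. Counts of Olig1 per count of Olig2 differed by -0.06 (exact permutation p = 0.366, adjusted 0.366), within the spread of either group. With Olig2 as the reference the log2 ratio of the other factors differed by 0.16 for Sox10, 0.12 for Nkx2-2, 0.05 for Nkx6-2, 0.004 for Sox8 and -0.19 for Sox6, given without a test. Of these, Sox6 was alone in having every mild-hypo-OPC ratio below the standard mean.

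The spread between libraries of a group also differed from factor to factor. Olig2 had a coefficient of variation of 2.83% in mild-hypo-OPCs and 6.45% in standard OPCs, Sox10 of 7.57% and 15.5%, and Myrf of 12.4% and 25.02%. The median of the 1220 genes with a mean of 100 to 1000 CPM was 7.12% and 12.7%, with a 90th percentile of 13.9% and 23.7%. Olig2 was thus steadier than the median gene of its level range in both groups, as were Sox8 (2.94% and 6.15%) and Nkx2-2 (5.20% and 6.92%). Myrf varied more than the 90th percentile among standard OPCs only. Libraries of the shallower standard group spread more for each of the 8 tested factors but Olig1 (7.74% and 6.20%).

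**Figure D3:**
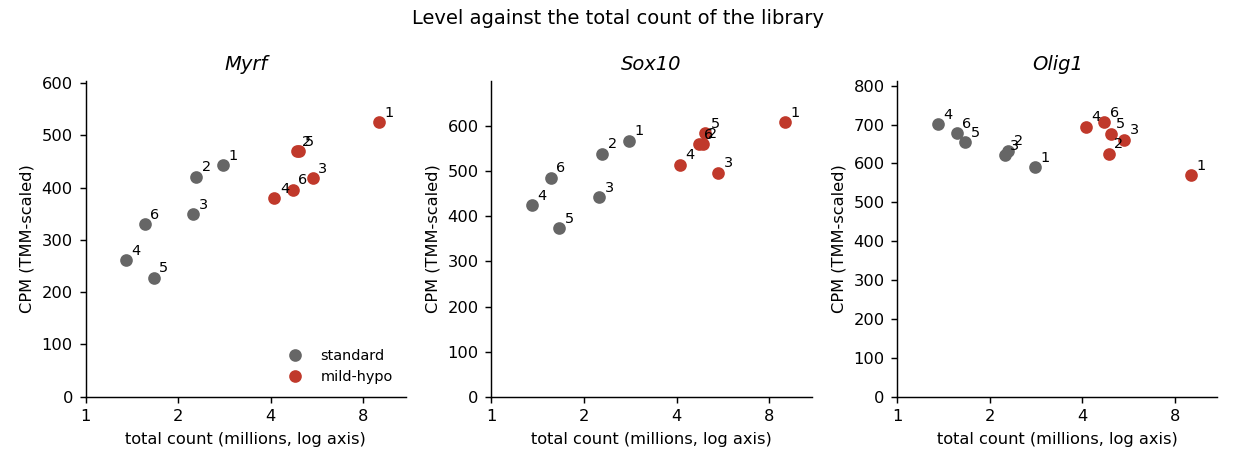
Level of Myrf, Sox10 and Olig1 (TMM-scaled CPM, y axis from 0) against the total count of each library (log axis), grey for standard OPCs and red for mild-hypo-OPCs, with replicate numbers. Myrf and Sox10 are low in the shallow standard replicates 4 and 5 (261 and 228, 424 and 373 CPM) and highest in the deepest library, mild-hypo-OPC replicate 1, which has the lowest Olig1 level of its group (569.8 CPM).

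Within groups, the levels of Sox10 and Myrf varied together. Over the 12 libraries, with each level taken as its deviation from the mean of its own group, their Pearson r was 0.92 (0.77 among mild-hypo-OPCs and 0.95 among standard OPCs), the highest of the 28 pairs of tested factors, whose median was 0.17. Sox8 had 0.65 to Sox10 and 0.57 to Myrf, and Nkx2-2 and Nkx6-2 had 0.55 between them. By group, Sox8 had 0.79 and 0.62 to Sox10 but 0.26 and 0.64 to Myrf among mild-hypo-OPCs and standard OPCs. The 2 Nkx factors had 0.38 and 0.63 in the same order. Olig1 ran the other way, at -0.69 to Myrf and -0.50 to Sox10, and Olig2 had -0.05 to Myrf and 0.11 to Sox10. The pooled values of Olig2 join unlike groups, with -0.39 and 0.02 to Myrf and -0.55 and 0.25 to Sox10 among mild-hypo-OPCs and standard OPCs. The libraries of a pair share their scaling factor and depth, so these values describe the 12 libraries and carry no p. By the same measure over all genes tested, Myrf was most like Nol4l (0.98), Map7d1 (0.97), Usp6nl (0.96), Kndc1 (0.96) and Plxnb2 (0.95). The gene most like Sox10 was Fam120a (0.97), and those of the other factors were Ppp6r3 for Sox6 (0.95), Tgfb1i1 for Sox8 (0.94), Lztr1 for Nkx6-2 (0.94), Zdhhc12 for Olig1 (0.90), Tmem164 for Olig2 (0.90) and Ostm1 for Nkx2-2 (0.85).

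**Figure D4:**
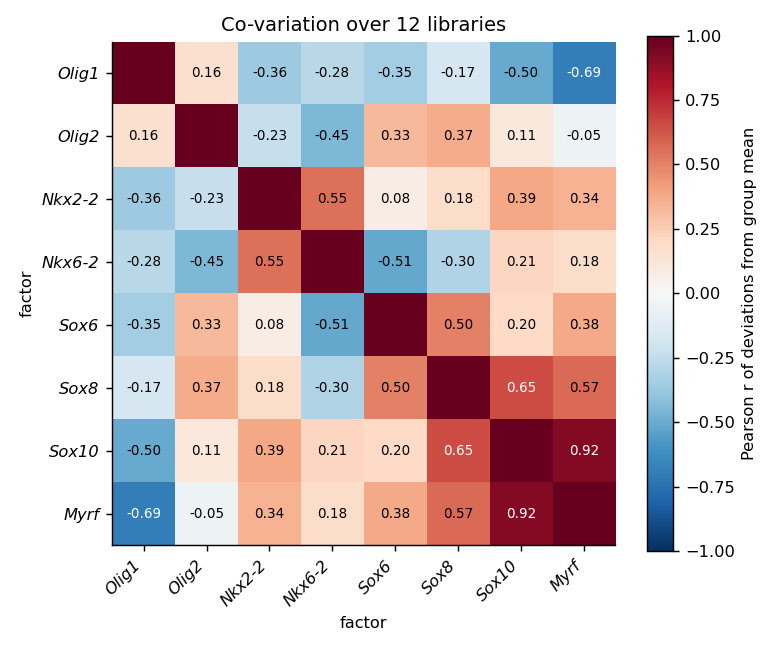
Pearson r between the 8 tested factors over 12 libraries, computed on log2 CPM as deviations from the mean of each group, with red positive and blue negative. The block of Sox8, Sox10 and Myrf in the lower right holds 0.57 to 0.92, and the row of Olig1 reaches -0.69.

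The closest relatives and dimer partners of the factors gave 1 call among 6 tested of 13, downward, a share near the 17.0% of all genes called lower. Tcf4, an E protein that pairs with OLIG factors, fell by 0.32 on the log2 scale (SE 0.10, 87.2 ± 11.98 against 109.7 ± 12.5 CPM, edgeR adjusted p = 0.0246), while the E proteins Tcf3 and Tcf12 had 0.03 and 0.19 and did not pass. No gene of this list was called lower, Tcf4 included, with upper-quartile scaling, with library size alone, without a filter, in replicates 1 to 3 alone, with the depth covariate, or without mild-hypo-OPC replicates 2, 3, 4, 5 or 6 or standard replicate 4. Sox9, the third group E gene, stood at 8.39 ± 1.85 against 9.97 ± 1.69 CPM (-0.20, adjusted p = 0.483), and Sox13, of group D like Sox6, at 12.9 ± 1.77 against 14.4 ± 3.83 CPM (-0.18, 0.467), both by edgeR. Myt1, of the family of St18, was at 60.2 ± 4.92 and 61.0 ± 8.93 CPM (-0.01). Olig3, Nkx6-3 and Myrfl had no count in any library. The median of the 6 was -0.10.

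Among 30 other transcription factors of the lineage, 23 were tested, with a median of 0.07, and 1 rose and 1 fell, no larger a share in either direction than the background of 7.00% higher and 17.0% lower. Zfp488, a zinc-finger partner of OLIG2 that is also a target of the lineage programme, rose by 0.29 (SE 0.08, 115 ± 8.26 against 93.7 ± 8.13 CPM, edgeR adjusted p = 0.0132). Carhsp1, a cold-shock domain RNA-binding protein kept in this list, fell by 0.37 (SE 0.09, 250 ± 17.4 against 324 ± 38.2 CPM, edgeR adjusted p = 0.00371). The other 21 did not pass, Sox2 and Tcf7l2 among them, with values of 0.18 and 0.21.

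Inhibitors of the factors held the largest decreases among these lists. ID proteins bind E proteins and so take them from OLIG factors, and of 10 inhibitors listed 5 were tested, 3 of which fell and none rose (background 17.0% lower and 7.00% higher). Id2 dropped from 96.5 ± 14.9 CPM in standard OPCs to 50.2 ± 2.77 CPM in mild-hypo-OPCs (log2 fold change -0.93, SE 0.10, adjusted p = 3.82e-05), Id1 from 29.7 ± 6.34 to 18.4 ± 2.04 CPM (-0.67, SE 0.13, 0.00141) and Id3 from 51.0 ± 13.0 to 33.9 ± 4.46 CPM (-0.56, SE 0.15, 0.0102), all by edgeR. Hey1, a NOTCH effector, and Tmem98, which restrains MYRF cleavage, had -0.20 and -0.05 and did not pass. Id4, Hes1, Hes5, Hey2 and Fbxw7 were below the filter. Each of the 12 fits that left out 1 library called 3 inhibitors lower, whereas 1 was called with library size alone and in replicates 1 to 3, and none with log2 total count as a covariate.

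Genes known as targets of SOX10 and MYRF gave the most calls, 13 of 27 tested and 32 listed, all upward (background 7.00%), at a median of 0.29. The largest was Rassf2, a Ras-association protein, at 15.3 ± 2.69 against 7.95 ± 2.33 CPM (log2 fold change 0.89, SE 0.19). Myo1d, an unconventional myosin, had 24.0 ± 1.72 against 13.4 ± 6.55 CPM (0.74, SE 0.19) and Lgi3, a secreted leucine-rich protein, 99.4 ± 6.40 against 59.8 ± 6.77 CPM (0.72, SE 0.09). Cldn11, the tight-junction claudin of myelin, rose by 0.54 (SE 0.11), the myelin-associated glycoprotein gene Mag by 0.47 (SE 0.10) and Gpr17, a receptor of cells on the way to differentiation, by 0.45 (SE 0.09). Adjusted p of these 6 ran from 9.52e-05 for Lgi3 to 0.00915 for Myo1d in edgeR. Others called included Cnp, Ugt8, Sgk1, Dusp15, Zfp488 and Fa2h, from 0.23 to 0.30. Mbp, the myelin basic protein gene, had 0.29 and did not pass (edgeR adjusted p = 0.0555), nor did the late myelin genes Mog (0.15) and Mobp (0.16) or the OPC receptor gene Pdgfra (0.05). Zfp488 counts in both lists, and Gpr17, Pdgfra and Cspg4 serve also as OPC markers. In replicates 1 to 3 alone 2 of these targets were called, and none with log2 total count as a covariate.

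**Figure D5:**
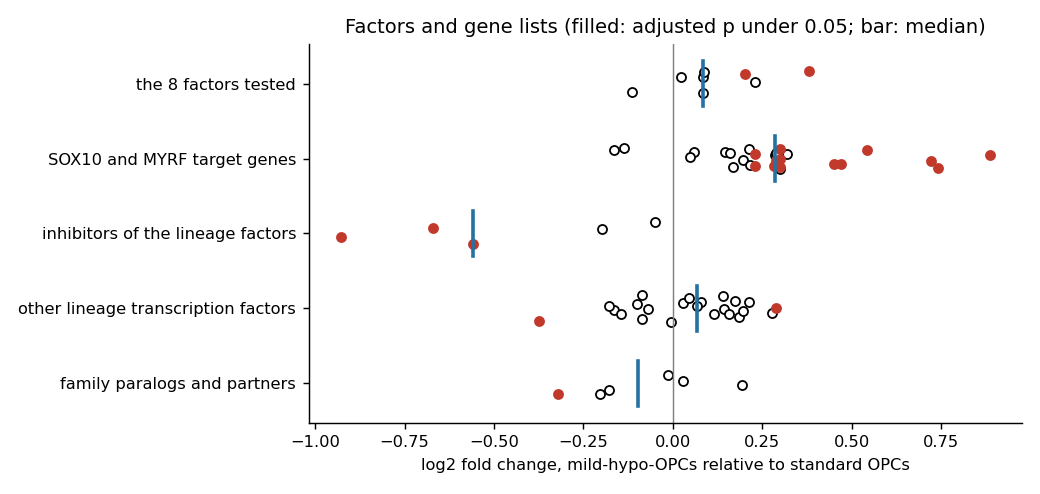
Log2 fold change in mild-hypo-OPCs relative to standard OPCs of each tested gene among the 8 factors, 27 targets of SOX10 and MYRF, 5 inhibitors, 23 other lineage transcription factors and 6 paralogs and partners. Filled points have an edgeR adjusted p under 0.05, open points do not, and the bar is the median of the list. Targets centre at 0.29 and inhibitors at -0.56, and the factors themselves at 0.09.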

How the data were processed

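Bulk RNA-seq libraries of rat OPCs, 6 mild-hypo-OPC and 6 standard OPC, were grouped by their labels. Per the submitters' processing notes, reads were handled with Trimmomatic 0.36, FastQC 0.11.9, STAR 2.7.9a and RSEM 1.3.3 on mRatBN7.2. The deposited values are whole-number counts per gene that the authors left unnormalized. The annotation, the strand setting and how RSEM estimates were made whole are not given in the sources used here. The library kit was strand-specific. All 12 columns were used and 0 were left unused.

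Genes above 10 CPM in at least 1 library were kept, scaled by TMM factors and tested with edgeR 4.0.16 in R 4.3.3 (quasi-likelihood test, condition as the only term, Benjamini-Hochberg over all genes kept, threshold 0.05). The study's methods used voom, which with limma 3.58.1 was an alternative, as were DESeq2 1.42.0, other scalings and filters, the replicate number as a block, subsets of replicates, a depth covariate, thinned counts and leaving out each library. The fits were tested on simulated data. Log2 CPM used a prior count of 2. Ratios were tested by exact permutation in SciPy 1.17.1 and figures were drawn with matplotlib 3.10.9. Errors cover the spread between deposited libraries.

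The members, lists, tests and alternatives were chosen with earlier results of these data known. Named genes are the 9 members, their tested family members, and up to 6 called genes per list and direction by size of change. Genes named beside these, such as Mbp, Sox2 or the uncalled inhibitors, are examples chosen after their values were seen. RefSeq windows were matched by symbol.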

Additional observations from a re-analysis of the deposited data

How the results depend on the processing

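Leaving out 1 library at a time gave log2 fold changes of 0.29 to 0.47 for Myrf, 0.18 to 0.25 for Nkx2-2, 0.17 to 0.29 for Sox10, -0.0033 to 0.092 for Olig1 and -0.0089 to 0.19 for Nkx6-2, with 0 to 3 members called higher, 0 to 1 paralogs and partners lower, and 1 to 3 other lineage factors higher. With library size alone all 8 members were called higher (Olig1 0.47, Olig2 0.52, Sox10 0.67, Sox8 0.53, Nkx6-2 0.51, and Sox6 reversed at 0.33), as were 5515 genes against 405 lower, 3 paralogs and partners with 0 lower, 17 other lineage factors with 0 lower, and 27 targets, with 1 inhibitor lower. Upper-quartile scaling called 1136 genes higher, Sox10 (0.30), 3 other lineage factors higher and 0 paralogs and partners lower. The depth covariate (log2 total count), which did not overlap between the groups, left 0 genes called higher and 43 called lower. With it 0 members, targets, other lineage factors, inhibitors or paralogs and partners were called. Sox10 and Myrf reversed to -0.16 and -0.41, Nkx2-2 was 0.069, Olig1 moved to 0.37 and Sox6 to -0.38. Replicates 1 to 3 alone called 53 genes higher and 343 lower, 0 members (Myrf 0.24, Nkx2-2 0.15, Nkx6-2 reversed at -0.055), 2 targets, 1 inhibitor, 0 other lineage factors and 0 paralogs and partners. Replicates 4 to 6 alone gave Sox10 0.38, Nkx2-2 0.29 without a call, and 1 paralog or partner higher. Thinning to the smallest total called 398 genes and 1 member higher (Nkx2-2 0.23 not called), and turned the log2 ratio of Olig1 to Olig2 to 0.012. Without a filter 1 member was called (Nkx2-2 0.24 not called) and 0 paralogs and partners were lower, and with edgeR's own filter 1 member was called (Nkx2-2 0.20 not called) and 2 other lineage factors were lower. DESeq2 called 2 other lineage factors higher. With the replicate number as a block 1 member was called, Myrf, with Nkx2-2 at 0.20 not called, and the log2 ratios of Myrf and of Olig1 to Olig2 differed by 0.33 and -0.064, each at an exact p of 0.03125, the smallest that 6 pairs allow. The labels do not say whether same-numbered libraries share a culture, and the numbers were not taken as pairs: their deviations correlated at -0.28 to 0.30, above 0.1 in 2 of 6 pairs, and 1 of 6 pairs matched best within its number. The cause of these changes was not tested. Low counts limit St18 and Nkx6-2 most, with as few as 1 and 12 counts in a standard library.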
